A study of Homo sapiens with 12 samples.

Results

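The 10 variant partners of Polycomb repressive complex 1 (PRC1), namely RYBP, YAF2, KDM2B, BCOR, BCORL1, L3MBTL2, AUTS2, MGA, E2F6 and USP7, were examined in Ewing sarcoma tumours with and without knock-down of RING1B. The genes were taken by name from the deposited count table, where all 10 were found among 57169 genes, and all 10 passed the filter on low counts that left 16519 genes for testing. RNA was measured in 6 RING1B knock-down and 6 control libraries from tumours that SK-ES1 cells, a long-established line of Ewing sarcoma, formed as xenografts in a host animal that the labels do not name. The controls are called wild-type in the labels, which do not say how RING1B was silenced, whether the controls carried a construct, or whether libraries came from separate animals. The titles of the 12 libraries carry 8 different numbers of unstated meaning, 4 of which occur on 2 libraries of the same group. p-values therefore measure the spread between these libraries, which may be in part technical.

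PRC1 places ubiquitin on histone H2A through RING1B (gene RNF2) or its paralogue RING1. Canonical PRC1 carries a CBX protein that reads the histone mark of PRC2. Variant PRC1 instead carries RYBP or YAF2 in that place, stimulates the ligase and reaches chromatin without the PRC2 mark. Its forms are told apart by their PCGF subunit. In PRC1.1 the demethylase homologue KDM2B binds unmethylated CpG dinucleotides and joins BCOR or BCORL1 to PCGF1, with the deubiquitinase USP7 associated. In PRC1.3 and PRC1.5, AUTS2 binds PCGF3 or PCGF5 and has been linked to gene activation in neural cells. In PRC1.6 the DNA-binding factors MGA and E2F6 and the reader protein L3MBTL2 surround PCGF6, and in mouse cells this complex keeps germline genes silent.

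Because KDM2B recognises CG dinucleotides, the start regions of the 10 genes were read for them. RefSeq (GRCh38.p14) gave 19 windows of 300 bases for the 10 genes, from 250 bases before to 50 bases after an annotated start. They held 0 to 55 CG dinucleotides with a median of 28, against a median of 14 over 35116 windows of all genes, and 16 of the 19 lay above that median. Some genes gave several windows, the comparison was not limited to tested genes, and methylation and KDM2B binding were not measured. The AUTS2 window (chr7:69598225-69598524, plus strand) held 55, more than 99.6% of all windows, and is shown because AUTS2 had the largest difference between the groups. Those of BCOR (chrX:40146584-40146883, minus strand) and BCORL1 (chrX:129984136-129984435, plus strand) held 29 and 46, more than 75.8% and 97.1% of all windows, and are shown because these paralogues varied together across libraries. For BCOR and BCORL1 the window with the most CG dinucleotides was taken. The sequences run 5′ to 3′ on the strand of the gene, and capitals mark each CG.
AUTS2: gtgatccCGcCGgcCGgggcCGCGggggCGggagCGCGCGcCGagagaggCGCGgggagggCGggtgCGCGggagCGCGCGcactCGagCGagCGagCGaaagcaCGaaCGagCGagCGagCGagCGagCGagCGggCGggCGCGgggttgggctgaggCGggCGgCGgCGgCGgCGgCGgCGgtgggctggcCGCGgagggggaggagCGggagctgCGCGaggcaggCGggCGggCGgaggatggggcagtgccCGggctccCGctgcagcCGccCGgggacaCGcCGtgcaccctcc
BCOR: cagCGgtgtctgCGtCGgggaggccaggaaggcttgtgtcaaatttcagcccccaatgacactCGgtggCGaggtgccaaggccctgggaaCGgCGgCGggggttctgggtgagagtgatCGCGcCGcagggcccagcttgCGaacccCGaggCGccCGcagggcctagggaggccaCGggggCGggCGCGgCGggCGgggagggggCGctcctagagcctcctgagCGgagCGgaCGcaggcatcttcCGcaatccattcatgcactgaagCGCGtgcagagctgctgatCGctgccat
BCORL1: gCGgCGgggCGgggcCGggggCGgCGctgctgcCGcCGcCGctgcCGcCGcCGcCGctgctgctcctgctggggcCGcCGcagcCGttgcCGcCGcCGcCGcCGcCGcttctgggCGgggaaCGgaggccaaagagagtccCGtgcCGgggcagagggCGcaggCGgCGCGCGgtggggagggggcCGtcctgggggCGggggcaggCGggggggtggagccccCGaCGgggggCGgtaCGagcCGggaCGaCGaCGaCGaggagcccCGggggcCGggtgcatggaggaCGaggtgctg
The E-box CACGTG, which MAX dimers bind and which reads the same on both strands, was found in 2 of the 19 windows, 1 of YAF2 and the other start of BCOR, against 7.26% of all windows. The E2F-type motif TTCCCGCC, searched on both strands, was in 0 of the 19 and in 3.16% of all windows, and the tandem ETS motif GGAAGGAA, also searched on both strands, in 0 of the 19 and in 3.67%. None of the 3 motifs contains another. A match is a description of letters and not of binding.

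Total counts ranged from 23859184 to 26678325 per library, so that 3 counts corresponded to 0.109 to 0.128 CPM (counts scaled to a common library size, with TMM factors). Of 8 Ewing sarcoma markers 7 were tested, with a summed level of 1899 to 2165 CPM in knock-down and 1795 to 2009 CPM in control. The eighth, CD99, whose exons are listed on both X and Y, was listed at 0 in all libraries. Most of the Ewing sarcoma sum was CCND1, at 1010 to 1322 CPM in knock-down and 1007 to 1211 CPM in control. NR0B1 ranged more widely, from 88.1 to 158 CPM in knock-down and from 75.2 to 207 CPM in control. Knock-down 4, knock-down 5 and control 6 stood apart, with the lowest mean Spearman correlations with the other libraries (0.964, 0.972 and 0.974). Their share of mitochondrial counts was 8.42%, 10.01% and 14.4%, against 4.65% to 7.64% elsewhere. Markers of host fibroblasts and pericytes, 9 of 10 tested, summed to 414 to 1627 CPM in knock-down and 575 to 1595 CPM in control. Counts were made on human genes (hg38), so this and the other host marker sums do not separate host from tumour RNA. Macrophage and leukocyte markers, 5 of 12 tested, summed to 5.13 to 24.3 CPM in knock-down and 4.71 to 19.4 CPM in control, with C1QA and C1QC at no more than 2 counts in any library. Endothelial markers summed to 18.5 to 28.5 CPM in knock-down and 17.9 to 29.4 CPM in control. Skeletal muscle markers, 4 of 9 tested, summed to 8.29 to 26.6 CPM in knock-down and 13.4 to 40.1 CPM in control, and all 4 had negative log2 fold changes, with a median of −0.75 and edgeR adjusted p from 0.442 to 0.811. The summed macrophage level was highest in knock-down 4 and, among controls, in control 5. So was the fibroblast sum, of which COL1A1, COL1A2 and COL3A1 made up 658, 331 and 446 CPM in knock-down 4. Other fibroblast markers differed in this. ACTA2 (50.2 CPM) and THY1 (25.5 CPM) were higher in knock-down 4 than in the other 5 knock-down libraries. LUM (6.34 CPM) and DCN (37.8 CPM) were lower there than in those 5, and PDGFRB (63.1 CPM) and RGS5 (7.83 CPM) lay within their range. DCN ranged from 37.8 to 74.2 CPM in knock-down and from 30.5 to 39.2 CPM in control (edgeR adjusted p = 0.0844). In bulk tumours, fewer cells of a type and less RNA per cell cannot be told apart.

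RNF2 was lower in every knock-down library than in any control library. Its level had a lowest, median and highest value of 12.4, 18.4 and 23.4 CPM in knock-down and of 37.5, 49.2 and 57.9 CPM in control. Its log2 fold change of −1.43 (SE 0.174, 95% interval −1.80 to −1.06, edgeR adjusted p = 0.00347, exact two-sided permutation p = 0.00216, the smallest that 6 against 6 libraries allow) left 37.2% of the control level. The paralogous ligase RING1 was at 58.9 ± 2.10 CPM in knock-down and 60.5 ± 6.68 CPM in control (SD, n = 6 each, edgeR adjusted p = 0.896).

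None of the 10 variant partners was called between knock-down and control at an edgeR adjusted p below 0.05, while RNF2 itself fell. Over all genes edgeR called 49, which is 0.297% of those tested, with 29 higher (0.176%) and 20 lower (0.121%) in knock-down. An unadjusted edgeR p below 0.05 was reached by 2 of the 10, BCOR and AUTS2, against 12.7% of all tested genes. No member separated the groups without overlap, as 1.22% of all genes did. The members had 4 positive and 6 negative log2 fold changes with a median of −0.04, beside 8657 positive, 7862 negative and a median of 0.01 over all tested genes. DESeq2 and limma-voom called 0 members as well, each with 2 at an unadjusted p below 0.05. The number of genes called by edgeR ranged from 16 to 79 when each library in turn was left out, with 0 members called each time.

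**Figure D1:**
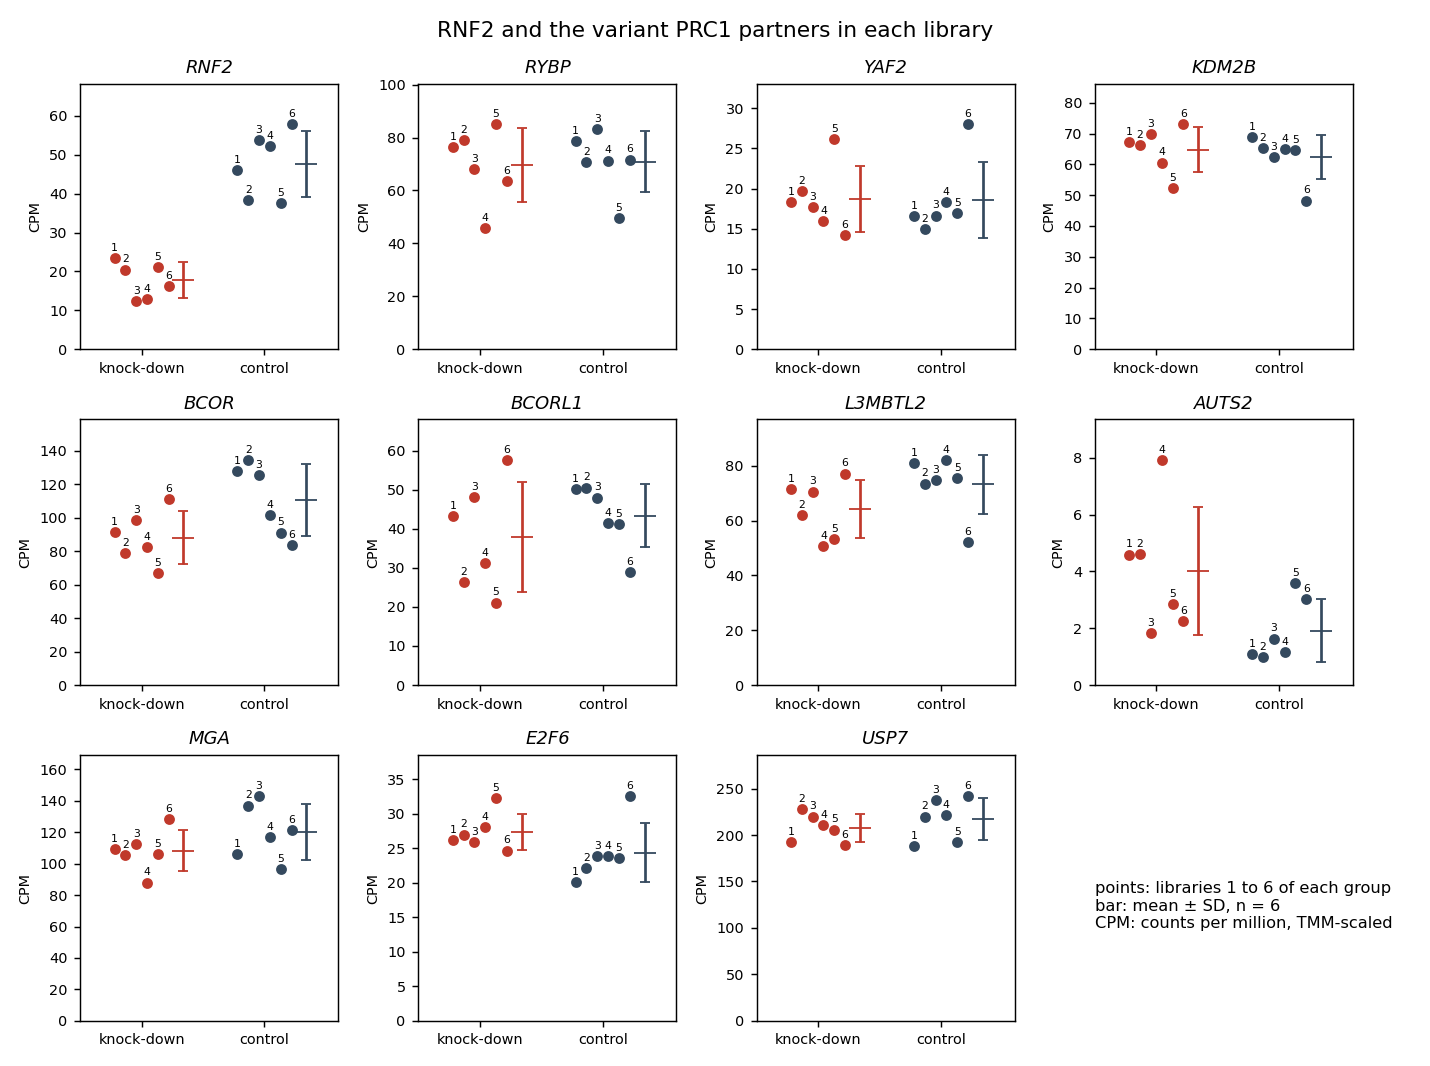
Level in CPM of RNF2 and the 10 variant partners in each of 6 knock-down and 6 control libraries, numbered 1 to 6, with mean ± SD. RNF2 separates the groups, from 12.4 to 23.4 CPM in knock-down and from 37.5 to 57.9 CPM in control, while each partner overlaps between them.

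In PRC1.1, BCOR had the lower mean in knock-down, with the groups overlapping. BCOR, the BCL6 corepressor that ties PCGF1 to KDM2B, lies on chromosome X from 40049815 to 40177329 (hg38, minus strand). It had 91.2, 78.6, 98.8, 82.3, 66.8 and 111 CPM in knock-down libraries 1 to 6, against 128, 134, 126, 101, 91.1 and 83.4 CPM in control libraries 1 to 6. Controls 1, 2 and 3 lay above every knock-down library, and controls 4, 5 and 6 lay within the knock-down range. On the log2 scale BCOR differed by −0.33 (SE 0.146, 95% interval −0.64 to −0.02, edgeR adjusted p = 0.365), or 0.797-fold. It was −0.29 without control 6, knock-down 4 and knock-down 5 (edgeR adjusted p = 0.375). Titles carry a letter, D or E, of unstated meaning. Controls 1 and 4 and knock-down 1, 2, 3 and 5 carried D, and the other libraries E. Letter and group were thus not balanced, and values within a letter rest on few libraries. Within D and E the BCOR difference was −0.47 and −0.17, with adjusted p over all alternatives from 0.166 to 0.961.

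BCORL1, the paralogue that can take the place of BCOR, varied more between libraries than between groups. On chromosome X from 129981107 to 130058083 (plus strand), it had a lowest, median and highest level of 21.1, 37.2 and 57.6 CPM in knock-down and of 29.02, 44.7 and 50.6 CPM in control. The lowest and the highest library were both knock-down, knock-down 5 and knock-down 6. For BCORL1 the log2 difference was −0.19 (SE 0.219, 95% interval −0.66 to 0.27, edgeR adjusted p = 0.754). Its spread within groups, an SD of 0.446 in log2 CPM, was above that of 95.8% of the 500 genes closest in level.

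The ratio of BCOR to BCORL1 per length was 1.97, 2.78, 1.92, 2.48, 2.96 and 1.80 in knock-down libraries 1 to 6, against 2.39, 2.49, 2.45, 2.29, 2.07 and 2.69 in control libraries 1 to 6. The control ratios lay inside the knock-down range. The mean log2 ratio was 1.19 ± 0.30 in knock-down and 1.25 ± 0.13 in control (SD, n = 6 each, exact two-sided permutation p = 0.604, adjusted over 2 ratios 0.799).

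KDM2B and USP7 were close to level between the groups. KDM2B, on chromosome 12 from 121429097 to 121581015 (minus strand), was at 64.8 ± 7.45 CPM in knock-down and 62.3 ± 7.21 CPM in control (SD, n = 6 each). Its log2 fold change was 0.06 (95% interval −0.17 to 0.29, edgeR adjusted p = 0.87). The lowest library was control 6 at 48.2 CPM, followed by knock-down 5 at 52.2 CPM. KDM2B shares 439 exon bases with RNF34 on the opposite strand, which held 1037 to 1474 counts per library, and reads of the 2 genes cannot be told apart without a stated strand setting. USP7, on chromosome 16 from 8892094 to 8964514 (minus strand), was at 208 ± 15.1 CPM in knock-down and 217 ± 22.7 CPM in control (SD, n = 6 each). Its log2 fold change of −0.06 had the narrowest interval of the members, −0.26 to 0.13 (edgeR adjusted p = 0.82). The other PRC1.1 subunits were the Polycomb ring finger protein PCGF1, with a log2 fold change of 0.11 (edgeR adjusted p = 0.713), and the F-box adaptor SKP1, with 0.05 (edgeR adjusted p = 0.912).

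RYBP and YAF2, the zinc-finger paralogues of which 1 sits in every variant complex, did not differ detectably. RYBP lies on chromosome 3 from 72371825 to 72446621 (minus strand). Its lowest, median and highest levels were 45.8, 72.3 and 85.1 CPM in knock-down and 49.5, 71.5 and 83.3 CPM in control. Knock-down 4 and control 5 were the low libraries. Between the groups RYBP differed in log2 by −0.02 (SE 0.151, 95% interval −0.35 to 0.30, edgeR adjusted p = 0.966). YAF2 lies on chromosome 12 from 42157104 to 42238349 (minus strand). Its lowest, median and highest levels were 14.2, 18.0 and 26.1 CPM in knock-down and 14.9, 16.8 and 28.0 CPM in control. Knock-down 5 and control 6 were the high libraries. The difference in YAF2 was, in log2, 0.01 (SE 0.173, 95% interval −0.36 to 0.38, edgeR adjusted p = 0.991), and its sign turned with RLE factors, to −0.0016. In fold terms the intervals ran from 0.787 to 1.23 for RYBP and from 0.779 to 1.298 for YAF2.

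Per length, RYBP was 4.31 to 6.71 times the level of YAF2 in knock-down and 3.84 to 7.53 times in control. The ratio was 6.28, 6.04, 5.78, 4.31, 4.90 and 6.71 in knock-down libraries 1 to 6, against 7.14, 7.11, 7.53, 5.85, 4.40 and 3.84 in control libraries 1 to 6. RYBP was the more abundant of the pair in all 12 libraries, and the groups overlapped. The size of the ratio depends on the exon lengths used, 7215 bases for RYBP and 10839 bases for YAF2. The mean log2 ratio was 2.49 ± 0.24 in knock-down and 2.53 ± 0.41 in control (SD, n = 6 each, exact two-sided permutation p = 0.799, adjusted over 2 ratios 0.799).

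AUTS2 had the largest difference of the 10, at a low level. The gene spans chromosome 7 from 69598296 to 70793495 (plus strand). Its level was 4.59, 4.61, 1.82, 7.92, 2.84 and 2.25 CPM in knock-down libraries 1 to 6, against 1.08, 0.986, 1.63, 1.16, 3.58 and 3.01 CPM in control libraries 1 to 6. Knock-down 4 was highest, and controls 5 and 6 lay above knock-down 3, 5 and 6. The other 4 controls lay below all knock-down libraries. Counts behind these values were 26 to 186. For AUTS2 the log2 difference was 1.07 (SE 0.408, 95% interval 0.20 to 1.94, unadjusted p = 0.0194, edgeR adjusted p = 0.298), or 2.10-fold. It was 0.76 without knock-down 4 (edgeR adjusted p = 0.48), 1.33 without control 5 (0.197) and 0.97 without control 6, knock-down 4 and knock-down 5 (0.334). Within the title letters D and E it was 1.61 and 1.13, and adjusted p over all alternatives ran from 0.157 to 0.934. AUTS2 and the sum of the host fibroblast markers, most of it collagen, were both highest, within their groups, in knock-down 4 and control 5, where the sum was 1627 and 1595 CPM. In knock-down 1 and 2, where AUTS2 was also high, the sum was 701 and 641 CPM, and in control 6 it was 1298 CPM. The sum of the macrophage and leukocyte markers was 24.3, 11.8 and 9.39 CPM in knock-down 4, 1 and 2. It was 5.13, 5.64 and 9.69 CPM in knock-down 3, 5 and 6. In controls 5 and 6 that macrophage sum was 19.4 and 14.2 CPM, against 4.71 to 8.93 CPM in the other controls. Most of it was LYZ in knock-down 4 (15.3 CPM), control 5 (9.98 CPM) and control 6 (7.79 CPM). Other macrophage markers went either way. CSF1R was highest of its group in knock-down 4 and control 5, at 3.41 and 4.26 CPM. MRC1 was highest of the knock-down libraries in knock-down 4, at 1.02 CPM, but lowest of the controls in control 6, at 0.293 CPM. Single fibroblast markers went either way. ACTA2 was at 50.2 CPM in knock-down 4 and 29.1 CPM in control 5, the highest of each group. THY1 was at 25.5 CPM in knock-down 4, the highest of the knock-down libraries, and at 17.9 CPM in control 5, within the range of the controls. The markers LUM and DCN were at 6.34 and 37.8 CPM in knock-down 4, the lowest of the knock-down libraries. In control 5 LUM and DCN were at 17.9 and 34.4 CPM, each the second lowest of the controls. The part of host reads in the AUTS2 value was not tested.

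Of the other 8 subunits listed for PRC1.3 and PRC1.5, edgeR called 0 (0.297% of all tested genes). An unadjusted p below 0.05 was reached by 0 of them (12.7% of all tested genes). Of their log2 fold changes 3 were positive and 5 negative, with a median of −0.07. PCGF3 was at 147 ± 17.7 CPM in knock-down and 149 ± 10.6 CPM in control (SD, n = 6 each, edgeR adjusted p = 0.938), and PCGF5 had a log2 fold change of −0.23 (edgeR adjusted p = 0.672). FBRSL1, a paralogue of AUTS2, was at 143 ± 16.7 CPM in knock-down and 121 ± 21.2 CPM in control, with a log2 fold change of 0.24 (edgeR adjusted p = 0.435). FBRS, another relative of AUTS2, had −0.16 (edgeR adjusted p = 0.682). The casein kinase subunits CSNK2A1, CSNK2A2 and CSNK2B had 0.09, −0.12 and 0.14, and the WD40 protein DCAF7 −0.18, with edgeR adjusted p from 0.5 to 0.77.

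In PRC1.6, MGA and L3MBTL2 had lower means and E2F6 a higher mean in knock-down, none called. MGA, a T-box and helix-loop-helix factor that pairs with MAX, lies on chromosome 15 from 41621224 to 41773081 (plus strand). Its lowest, median and highest levels were 88.0, 108 and 128 CPM in knock-down and 96.7, 119 and 143 CPM in control. Only controls 2 and 3 exceeded the highest knock-down library. For MGA the log2 difference was −0.15 (SE 0.115, 95% interval −0.40 to 0.10, edgeR adjusted p = 0.615).

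L3MBTL2, an MBT-domain protein that compacts chromatin, lies on chromosome 22 from 41205205 to 41231271 (plus strand). Its lowest, median and highest levels were 50.8, 66.3 and 77.2 CPM in knock-down and 52.3, 75.2 and 82.2 CPM in control. The low libraries were knock-down 4, control 6 and knock-down 5. In log2, L3MBTL2 differed by −0.19 (SE 0.132, 95% interval −0.47 to 0.09, edgeR adjusted p = 0.576). Its exons share 117 bases with CHADL and 937 with AL035681.1 on the opposite strand, genes with at most 8 and 60 counts in any library.

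E2F6, a repressive E2F that lacks an activation domain, lies on chromosome 2 from 11444375 to 11466177 (minus strand). It had 26.2, 26.99, 25.9, 28.1, 32.3 and 24.7 CPM in knock-down libraries 1 to 6, against 20.1, 22.2, 23.9, 23.9, 23.6 and 32.6 CPM in control libraries 1 to 6. All 6 knock-down libraries lay above 5 of the 6 controls, and control 6 lay above them all. For E2F6 the log2 difference was 0.17 (SE 0.121, 95% interval −0.09 to 0.42, edgeR adjusted p = 0.591) and 0.27 without control 6 (edgeR adjusted p = 0.186, against up to 0.991 over the alternatives). Of 4 annotated pseudogenes of E2F6, E2F6P1, E2F6P2 and E2F6P3 had 0 counts and E2F6P4 had 1 to 42.

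The other 7 subunits of PRC1.6 included 0 called by edgeR (0.297% of all tested genes) and 0 at an unadjusted p below 0.05 (12.7%). Of their 7 log2 fold changes 4 were positive, and their median was 0.00245. MAX, the partner of MGA, was at 64.5 ± 10.01 CPM in knock-down and 54.8 ± 5.12 CPM in control (SD, n = 6 each, log2 fold change 0.23, edgeR adjusted p = 0.402). CBX3, a heterochromatin protein, had 0.22, PCGF6 0.12 and TFDP1, the dimerisation partner of E2F6, 0.0024. The histone methyltransferase cofactor WDR5 had −0.08 and the deacetylases HDAC1 and HDAC2 had −0.02 each, with edgeR adjusted p from 0.665 to 0.996 for these 6.

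**Figure D2:**
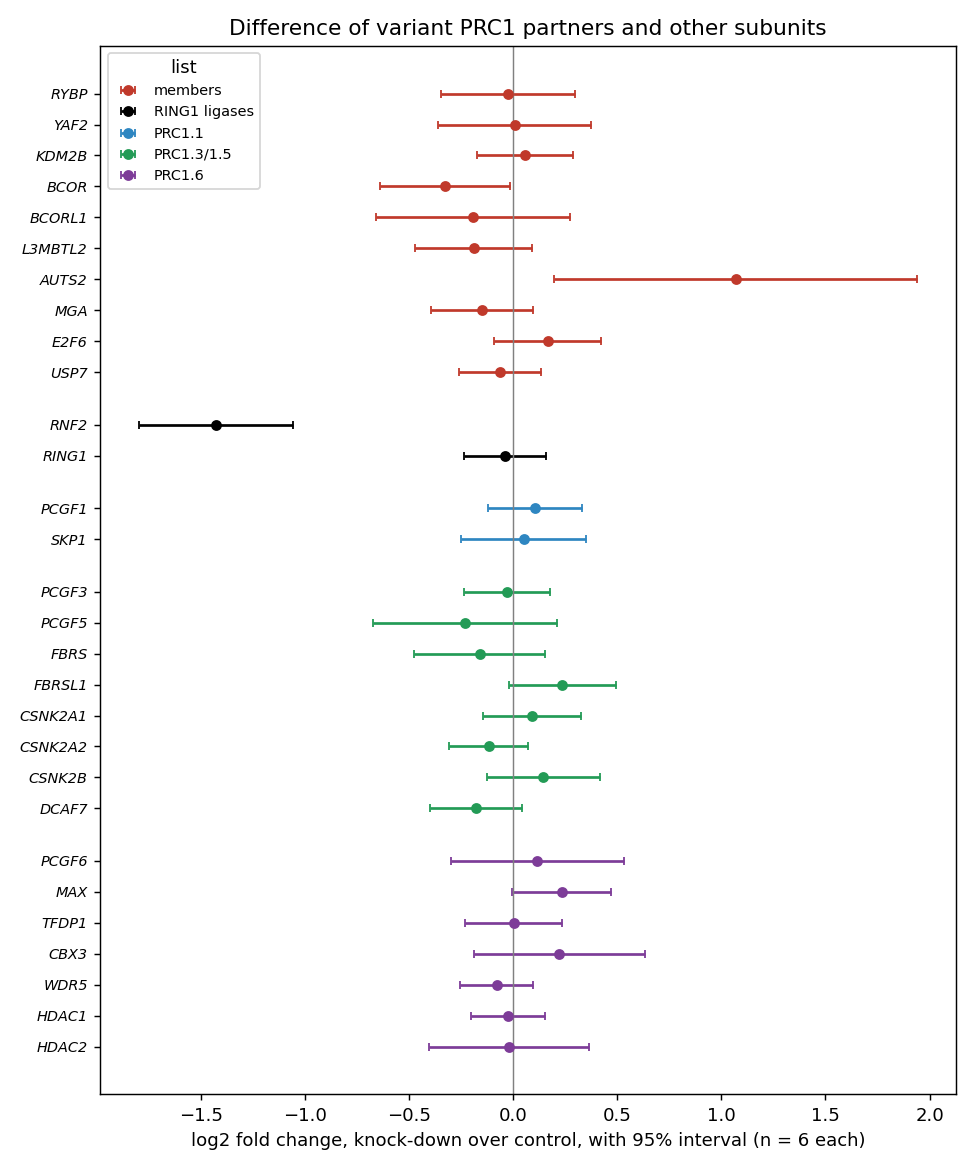
Log2 fold change of knock-down over control with its 95% interval (edgeR, n = 6 each) for the 10 variant partners, the RING1 ligases and the other subunits of the variant complexes. RNF2 lies at −1.43, AUTS2 at 1.07 with the widest interval, and the intervals of all members but AUTS2 and BCOR cross 0.

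Compared per length, the partners spanned a wide range in either group. RPKM here is CPM divided by the length in kilobases of the union of a gene's annotated exons, so genes with many rarely used exons are understated. In control, USP7 was highest at 27.2 ± 2.85 RPKM, above BCOR, at 12.9 ± 2.51 RPKM, in 6 of 6 libraries without overlap. L3MBTL2 followed at 11.4 ± 1.68 RPKM and RYBP at 9.82 ± 1.605 RPKM, and neighbours among these 3 overlapped in range. MGA (6.81 ± 1.003), E2F6 (5.99 ± 1.06), BCORL1 (5.43 ± 1.02) and KDM2B (4.58 ± 0.53) formed a run of RPKM values whose neighbours also overlapped, as did RYBP and MGA. YAF2, at 1.71 ± 0.44 RPKM, lay below and AUTS2, at 0.0789 ± 0.046 RPKM, far below these (SD, n = 6). RNF2 itself was at 4.35 ± 1.12 RPKM in knock-down and 11.7 ± 2.07 RPKM in control (SD, n = 6 each). In control its mean lay between those of BCOR and L3MBTL2, with overlapping ranges, and it was above L3MBTL2 in 3 of 6 libraries. In knock-down it lay below BCORL1, at 4.75 ± 1.75 RPKM, and KDM2B, at 4.76 ± 0.55 RPKM, with overlapping ranges, and above YAF2, at 1.72 ± 0.38 RPKM, in 6 of 6 libraries. In knock-down E2F6, at 6.73 ± 0.65 RPKM, came before MGA, at 6.13 ± 0.73 RPKM, with overlapping ranges.

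**Figure D3:**
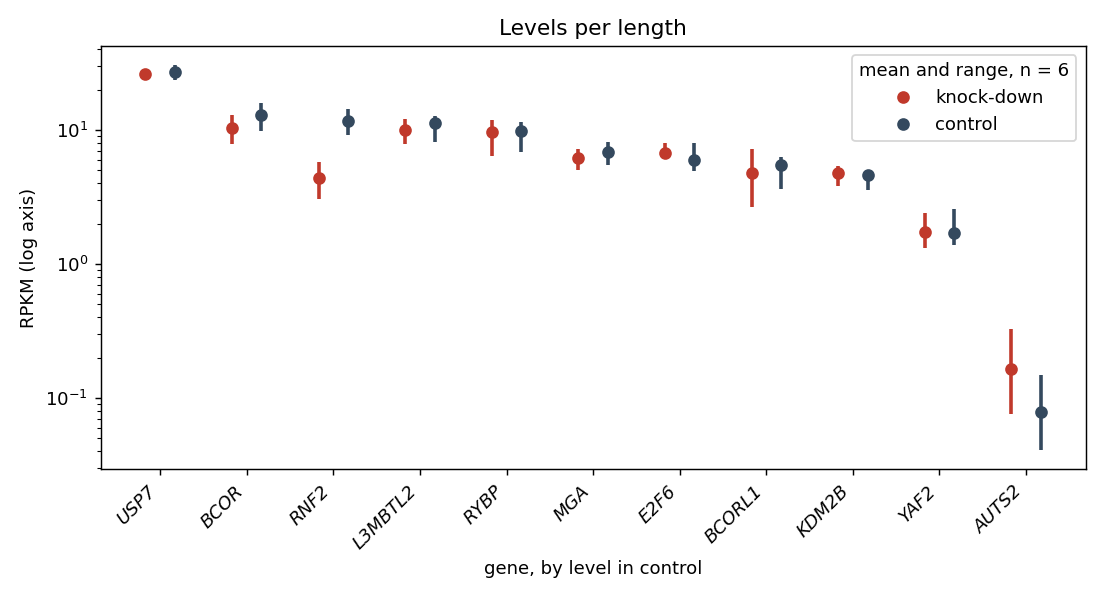
Mean and range over 6 libraries of RPKM on a log axis for the partners and RNF2, knock-down left of control for each gene, ordered by the level in control. USP7 is highest near 26.1 and 27.2 RPKM, AUTS2 lowest at 0.166 and 0.0789 RPKM, in knock-down and control.

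Several partners moved together, or opposite to each other, from library to library within the groups. After the group means were taken off, Pearson's r of log2 CPM over the 12 libraries was 0.91 for KDM2B with L3MBTL2, 0.90 for BCOR with BCORL1 and 0.84 for KDM2B with BCORL1. It was −0.95 for KDM2B with E2F6 and 0.87 for YAF2 with E2F6. These 5 pairs were picked for their high values. Over all 45 pairs of members r ranged from −0.95 to 0.91, with 23 positive and a median of 0.07. Without control 6, knock-down 4 and knock-down 5 these 5 pairs had r of 0.74, 0.81, 0.66, −0.84 and 0.53 in the same order. The values are a description over libraries that share their group and their scaling, with no test.

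The pattern was plainest in knock-down 5 and control 6, which had the largest shares of mitochondrial counts, 10.01% and 14.4%. Relative to the group mean in log2 CPM, KDM2B lay at −0.30 in knock-down 5 and −0.36 in control 6, and BCORL1 at −0.76 in knock-down 5 and −0.56 in control 6. E2F6 lay at 0.24 in knock-down 5 and 0.44 in control 6, and YAF2 at 0.51 in knock-down 5 and 0.62 in control 6. In knock-down 4, whose share of 8.42% came next, YAF2 lay at −0.20, E2F6 at 0.04, KDM2B at −0.09 and BCORL1 at −0.20. The part of the mitochondrial share in the members' values was not tested. USP7 varied least, with an SD within groups of 0.132 in log2 CPM, higher than that of 4.41% of tested genes. AUTS2 varied most, with an SD of 0.767, higher than that of 92.2% of tested genes. Against the 500 genes closest in level, the SD was higher than that of 86.2% for AUTS2, 95.8% for BCORL1 and 9.6% for USP7.

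**Figure D4:**
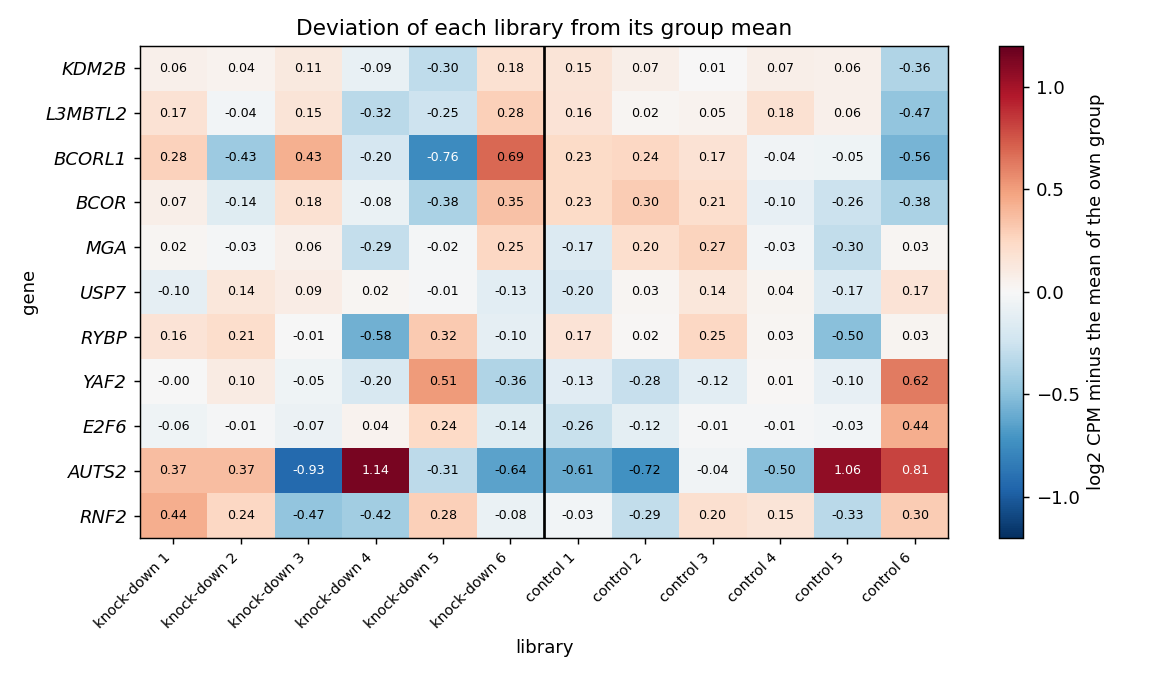
Log2 CPM of each partner and of RNF2 minus the mean of its own group, for the 6 knock-down libraries left of the 6 control libraries. KDM2B, L3MBTL2, BCORL1 and BCOR are low and YAF2 and E2F6 high in knock-down 5 and control 6, and AUTS2 is highest in knock-down 4 at 1.14.

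The gene most like each member over the 12 libraries, by Pearson's r after the group means were taken off, was named from 14222 other genes with a mean of at least 1 CPM. For BCORL1 it was TBC1D14 (r = 0.99), for L3MBTL2 ABCF3 (0.99), for KDM2B THOP1 (0.98), for BCOR the protocadherin PCDHA6 (0.98) and for MGA the Mediator subunit MED13 (0.97). For YAF2 it was the noncoding AC021851.1 (r = 0.97), for AUTS2 the pseudogene AC098591.2 (0.97), for E2F6 the ubiquitin-conjugating enzyme UBE2Q2 (0.97, but Spearman's rho 0.65), for RYBP the transcription factor SNAI2 (0.92) and for USP7 the BCL2 relative MCL1 (0.87). Without control 6, knock-down 4 and knock-down 5, r was 0.77 for KDM2B, 0.88 for E2F6 and between 0.88 and 0.99 for the others. Each was the highest of many values, and no test was made.

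Genes related to the partners were also without a call. Over all tested genes 8657 log2 fold changes were positive and 7862 negative. Among 13 listed paralogues edgeR called 0, with 2 at an unadjusted p below 0.05 (12.7% of all genes), 4 positive and 9 negative log2 fold changes and a median of −0.10. The 2 were E2F4, at 55.7 ± 8.12 CPM in knock-down and 68.4 ± 8.83 CPM in control, and E2F7, at 26.4 ± 8.08 CPM in knock-down and 37.2 ± 7.91 CPM in control (SD, n = 6 each, edgeR adjusted p = 0.322 and 0.339). L3MBTL1 had a log2 fold change of −0.34 (edgeR adjusted p = 0.519). Of 10 genes of the MAX network, through which MGA competes with MYC for MAX, 0 were called and 1 had an unadjusted p below 0.05 (12.7% of all genes), with 5 positive, 5 negative and a median of 0.10. This was MXI1, a repressive partner of MAX, at 74.9 ± 20.2 CPM in knock-down and 53.3 ± 8.34 CPM in control (SD, n = 6 each, log2 fold change 0.49, edgeR adjusted p = 0.248). MYCN and MXD1 had 0.45 and 0.41 (edgeR adjusted p = 0.402 and 0.522).

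Of 11 substrates and partners of USP7, edgeR called 0 and 3 had an unadjusted p below 0.05 (12.7% of all genes), with 4 positive, 7 negative and a median of −0.02. Among them the forkhead factor FOXO4 and the checkpoint protein CLSPN differed by 0.29 and −0.48 in log2 (edgeR adjusted p = 0.359 and 0.366). GMPS, which forms a complex with USP7, had −0.15 (edgeR adjusted p = 0.496). Of 12 canonical PRC1 subunits 0 were called and 3 had an unadjusted p below 0.05 (12.7% of all genes), namely PCGF2 (0.27), SCMH1 (0.29) and PHC3 (−0.38), with edgeR adjusted p from 0.281 to 0.357, while CBX2 was at −0.20 (0.631). Their median was 0.01, with 7 positive and 5 negative.

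Of 17 germline genes listed as of the kind that PRC1.6 silences in mouse cells, only 6 had enough counts to be tested, and edgeR called 0, with 2 at an unadjusted p below 0.05 (12.7% of all genes), 3 positive, 3 negative and a median of −0.25. TAF7L, a testis TFIID subunit, was at 0.436 ± 0.099 CPM in knock-down and 0.859 ± 0.34 CPM in control. STAG3, a meiotic cohesin subunit, was at 3.16 ± 1.14 CPM in knock-down and 1.82 ± 0.43 CPM in control (SD, n = 6 each, edgeR adjusted p = 0.197 for TAF7L and 0.236 for STAG3). MEI1 and TDRKH differed by −0.59 and 0.28 in log2 (edgeR adjusted p = 0.435 and 0.441). DAZL and MAEL, germ cell genes, had 0 counts in all 12 libraries, which allows at most 0.128 CPM in any of them.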

How the data were processed

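Per the labels' protocols, tumour RNA (RNeasy) went into TruSeq stranded mRNA libraries. The authors deposited 1 table of raw counts per gene without normalisation, with exon coordinates and an exon length per gene. The build hg38 and the programs STAR 2.6.0a, featureCounts, FastQC, R 3.6.0 and limma 3.40.2 are named in the submitters' processing notes. Not given in the sources used here were the counting strand, the handling of multiply aligned reads and any removal of host reads. The spans of all 10 members equal those of GENCODE 29.

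In R 4.3.3, counts of 6 knock-down and 6 control libraries were filtered by filterByExpr (16519 genes, at least 99.72% of counts), scaled by TMM and tested with edgeR 4.0.16 (quasi-likelihood F test, robust, no covariate, Benjamini-Hochberg over all tested genes, called below 0.05). Standard errors and 95% intervals of log2 fold changes come from the F statistic. CPM carries the TMM factors (0.921 to 1.04), log2 CPM a prior count of 2, and RPKM divides by the deposited exon length. RNF2 and 2 ratios were compared by exact permutation over 924 divisions of the libraries. Intervals and floors cover these libraries and counting error only. The script was tested on simulated data. No 2 libraries of a group were alike within counting noise (chi-square per degree of freedom at least 12.05). Alternatives were RLE, upper quartile and no factors, other count filters, DESeq2 1.42.0, limma-voom (limma 3.58.1), the title number as a random effect or for summing, the title letter, and leaving libraries out. The named genes were the 10 members, RNF2, all tested subunits of the variant complexes, up to 4 genes of each other list by adjusted p, overlapping genes, pseudogenes and the gene most like each member. The members and lists were chosen with earlier results of these data known. A pseudogene of BCOR was not analysed here. The values of 1 listed gene are not reported here.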

Additional observations from a re-analysis of the deposited data

Results flagged for a closer look

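Of 26 sets of 6 libraries checked (RNF2, the 10 members and 2 ratios in each group), 5 held a library whose gap to the nearest other exceeded Dixon's 95% critical value as a share of the group's range. Chance flags about 1 in 20 such sets, but these sets share libraries and are not independent. The 5 of 26 therefore cannot be weighed against that rate. RYBP was lowest in control 5, at 49.5 CPM against 70.7 CPM in the next. The other 4 were all control 6. YAF2 was highest there at 28.0 CPM, with the next control at 18.3 CPM, and E2F6 was highest at 32.6 CPM, with the next at 23.9 CPM. KDM2B was lowest in control 6 at 48.2 CPM, with the next at 62.3 CPM, and L3MBTL2 was lowest at 52.3 CPM, with the next at 73.5 CPM. Control 6 also had the highest share of mitochondrial counts, 14.4%, and its part in these values was not tested.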

How the results depend on the processing

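Across 25 alternatives 0 of the 10 members were called, with 0 to 4 at an unadjusted edgeR p below 0.05 when 1 library was left out. Of 250 values, 10 members under 25 alternatives, 229 kept their direction and 21 changed sign. BCOR, L3MBTL2, AUTS2, MGA and E2F6 kept their sign in all 25. The number of genes called over the whole table, 49, was 356 by DESeq2, 91 with the title number as a random effect (limma-voom), 7 after summing by title number, 28 with the title letter as a covariate, 6 in letter D libraries alone and 108 without control 6, knock-down 4 and knock-down 5. In letter E libraries alone edgeR called 0, with 903 genes at an unadjusted p below 0.05. Leaving out single libraries gave 16 to 79, with 19, 20, 16, 28 and 77 without control 1, 2, 3, 4 and 6 and 16, 31 and 79 without knock-down 1, 3 and 4. The log2 fold change of RNF2 was −1.37 in letter D and −1.69 in letter E libraries, without a call in either (edgeR adjusted p = 0.135 and 0.552, fewer samples), and −1.53 to −1.35 on leaving out single libraries. The sign changes were in YAF2, RYBP, KDM2B, USP7 and BCORL1. YAF2, 0.0075 in the main test, was −0.0016 with RLE factors, −0.00022 with no filter, −0.0016 by DESeq2, −0.076 after summing, −0.055 with the letter as a covariate and −0.35 in letter E. RYBP was 0.025 in letter D and 0.019 without the 3 libraries, KDM2B −0.083 and USP7 0.032 in letter D, and BCORL1, −0.19 in the main test, 0.069 in letter E. On leaving out single libraries YAF2 ranged from −0.11 to 0.16, RYBP from −0.12 to 0.072 and KDM2B from −0.0070 to 0.11. The difference of the log2 ratio of RYBP over YAF2, −0.05, was 0.0073 after summing and −0.17 to 0.029 on leaving out single libraries. That of BCOR over BCORL1, −0.07, was 0.015 in letter D and −0.14 to −0.0015 on leaving out single libraries. The causes were not tested. No paired analysis was possible because no title number occurs in both groups. The consensus correlation of libraries sharing a title number was −0.125. AUTS2, with 26 counts in its lowest library, is the member most limited by depth.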
